A study of Mus musculus with 2 samples.

Results

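The proteasome is the barrel-shaped protease that degrades ubiquitin-tagged proteins in the cytosol and nucleus. Its genes were taken here as every gene whose symbol is Psma, Psmb, Psmc or Psmd followed by a number, which gave 39 members among the 31054 genes counted. Of these, 36 are called standard members, and Psmb8, Psmb9 and Psmb10, the immunoproteasome subunits, were kept apart. The cells were isolated from gonadal fat of male p16-CreERT2/R26-LSL-tdTomato mice that were 18 months old and had been given tamoxifen, in which a Cre recombinase driven by the p16 gene turns on tdTomato. The reporter therefore marks cells that expressed p16 when tamoxifen was given, and their descendants. CD31- CD45- cells of the stromal vascular fraction were sorted into tdTomato-positive (Tom+) and tdTomato-negative (Tom-) cells, and 1 droplet library was made of each. Both libraries carried the same alleles, had the same age and went through the same enzyme digestion, and the number of mice behind each is not given in the sources used here. With 1 library per sorted group there is no replicate error and no test, and the sort, the mice and the preparation cannot be told apart.

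The core of the particle, the 20S proteasome, is a stack of rings built from alpha subunits (Psma genes), which form the gate, and beta subunits (Psmb genes), some of which cut the substrate. The 19S cap binds ubiquitin chains, unfolds the protein with a ring of ATPases (Psmc genes) and removes the chains with the help of the non-ATPase subunits (Psmd genes). Under interferon the catalytic beta subunits Psmb5, Psmb6 and Psmb7 can be replaced by Psmb8, Psmb9 and Psmb10, respectively, and the resulting immunoproteasome supplies peptides for MHC class I molecules. Fibroblast-like cells carry both forms in proportions that shift with cytokine exposure.

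Quality limits of between 1000 and 7000 genes per cell and a mitochondrial share of unique molecular identifiers (UMIs) under 8% left 3524 of 5566 Tom+ barcodes and 6717 of 11838 Tom- barcodes. Cells with at least 10 UMIs of Msln, Upk3b, Krt19, Lrrn4 and Upk1b were called mesothelial, the lining cells of the fat pad, and cells with fewer than 5 were called stromal. This gave 3263 Tom+ and 4800 Tom- stromal cells and 250 Tom+ and 1887 Tom- mesothelial cells, while 11 and 30 cells fell between the limits. Pdgfra, a receptor of adipocyte progenitors and fibroblasts, reached 344 and 282 CPM (UMIs per 1000000 UMIs of the group) in Tom+ and Tom- stromal cells and at 41.9 and 51.4 CPM in mesothelial cells. Dcn, the fibroblast gene decorin, was still at 9987 and 11318 CPM in mesothelial cells against 18504 and 22290 CPM in stromal cells. Col1a1 was at 826 and 929 CPM against 2758 and 2287 CPM, and Col1a2 at 1519 and 1492 CPM against 4185 and 3063 CPM. The stromal markers Lum and Dpt were at 44.0 and 59.4 CPM in Tom+ mesothelial cells against 1135 and 1325 CPM in Tom+ stromal cells. In the Tom- library they were at 89.7 and 62.8 CPM against 1015 and 867 CPM. Whether mesothelial cells express Dcn, Col1a1 and Col1a2 was not tested. tdTomato RNA stood at 211 and 13.1 CPM in Tom+ and Tom- stromal cells and at 780 and 8.25 CPM in mesothelial cells. Cdkn2a, the gene of p16, was sparse, with 4.66, 5.79, 12.4 and 8.47 CPM in Tom+ stromal, Tom- stromal, Tom+ mesothelial and Tom- mesothelial cells. Median depth was 14235 and 11270 UMIs per Tom+ and Tom- stromal cell and 18601.5 and 14753 UMIs per mesothelial cell.

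The libraries shared 2224 cell barcodes, of which 9 passed the limits in both. Shared barcodes made up 12.4% of Tom+ stromal, 1.56% of Tom- stromal, 40.0% of Tom+ mesothelial and 11.0% of Tom- mesothelial cells, so main results of the members are also given without them. The splits of the cells of 1 library, the per-cell counts, the pathway lists and the complexes are given only with them. The stromal class also held 145 Tom+ and 67 Tom- cells with at least 1% immunoglobulin UMIs. Immunoglobulin genes took 6.03% of the UMIs of Tom+ and 1.56% of those of Tom- stromal cells, although CD45+ cells had been gated out. The summed immune markers stood at 203 and 68.5 CPM in Tom+ and Tom- stromal cells and at 326 and 16.0 CPM in mesothelial cells, Lyz2 of macrophages leading at 130, 20.5, 275 and 10.8 CPM. None of the 6 immune markers was at 0 in any group, and Ptprc, which encodes CD45, was at 7.57, 3.44, 6.39 and 0.49 CPM in the same order. The 3 endothelial markers summed to between 4.99 and 13.9 CPM, with Cdh5 at 0 in Tom+ mesothelial cells. Main results of the members and most splits of the cells of 1 library are therefore also given without cells of other types. These are cells with that immunoglobulin share or with at least 3 UMIs of the immune and endothelial markers. The per-cell counts, the pathway lists and the complexes include them.

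All groups expressed nearly all standard members. In every group 34 of the 36 standard members were above 5 CPM, and the 34 together gave nearly all of a summed level of 3319 CPM in Tom+ stromal cells (exact Poisson 95% interval 3303 to 3335), 3480 CPM in Tom- stromal cells (3465 to 3495), 3875 CPM in Tom+ mesothelial cells (3822 to 3928) and 4016 CPM in Tom- mesothelial cells (3994 to 4038). These and all later intervals cover counting error only. The summed levels of these groups are given only with shared barcodes and cells of other types included. The remaining 2 are tissue forms: Psma8, the alpha subunit of the testis, had 7, 3, 1 and 1 UMIs in these groups, and Psmb11, the beta subunit of the thymic cortex, had 10, 6, 0 and 5. The 0 allows up to 0.69 CPM. Each UMI stands for 1 captured 3′ end, so levels of different genes were compared without division by length.

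The levels of the standard members were unequal. Among the 31 standard members above 5 CPM that stay in the finished particle, the highest level was 4.34, 5.16, 5.26 and 5.00 times the lowest in Tom+ stromal, Tom- stromal, Tom+ mesothelial and Tom- mesothelial cells. Cap subunits with other symbols are not members and lie outside this range. Among them, Sem1 had 304, 302, 347 and 352 CPM in the same order. Core subunits led, with a median of 129 CPM over the 7 alpha and 134 CPM over the 7 beta subunits in Tom+ stromal cells, against 62.0 CPM over the 6 ATPases and 81.4 CPM over the 11 non-ATPase subunits. The dedicated assembly chaperones Psmd5, Psmd9 and Psmd10, which leave the finished cap, were the 3 lowest of the 34 standard members above 5 CPM in every group, from 11.7 to 36.6 CPM. At the top of the members, Psma3 had 228 and 265 CPM in Tom+ and Tom- stromal cells and 229 and 254 CPM in Tom+ and Tom- mesothelial cells, and Psma7 had 198, 191, 293 and 272 CPM. These alpha-ring genes were joined among the 3 highest by Psmd8, a subunit of the cap, in Tom+ stromal cells (191 CPM), by the alpha subunit Psma2 in Tom- stromal cells (191 CPM) and by the beta subunit Psmb2 in Tom+ and Tom- mesothelial cells (183 and 222 CPM). The immunosubunits were at 66.4 (Psmb8), 23.1 (Psmb9) and 56.5 CPM (Psmb10) in Tom+ stromal cells, 85.7, 34.2 and 64.1 CPM in Tom- stromal cells, 148, 84.4 and 124 CPM in Tom+ mesothelial cells, and 151, 81.2 and 103 CPM in Tom- mesothelial cells. Psmb9 was thus the lowest of the 3 in each group.

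**Figure D1:**
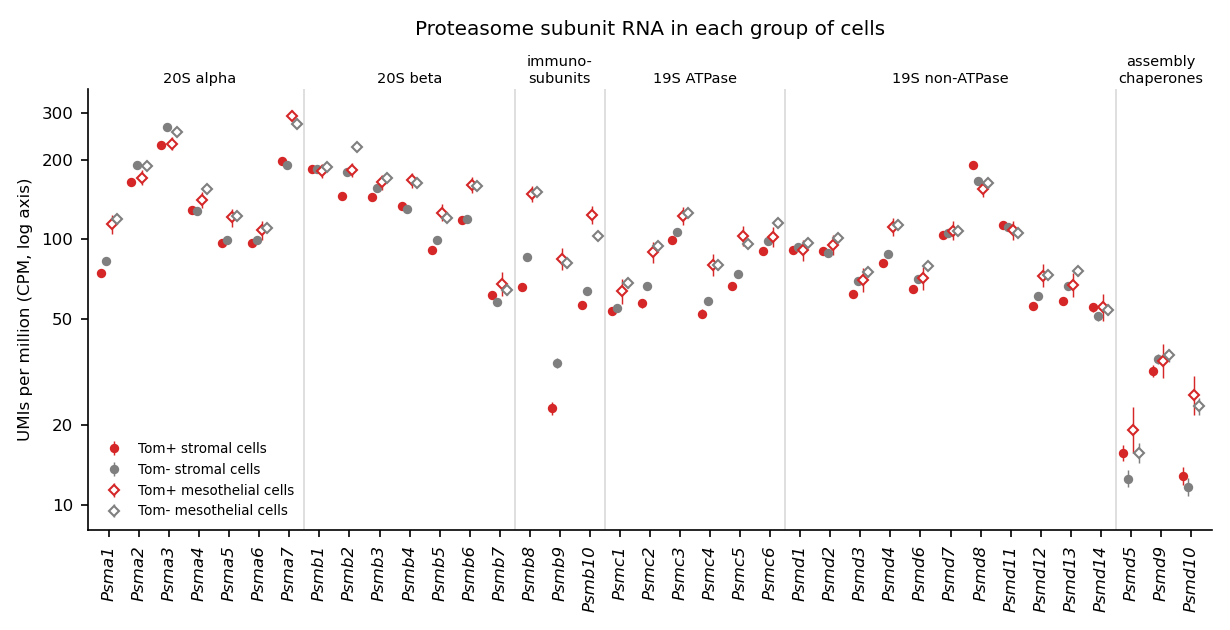
Level of 37 members in CPM on a log axis, by role, in the 4 groups; points are summed UMIs of a group and bars exact Poisson 95% intervals. Psmb8, Psmb9 and Psmb10 lie at 23.1 to 85.7 CPM in stromal and 81.2 to 151 CPM in mesothelial cells, while most standard members lie close together across groups.

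The promoters of Psmb9 and Psmb8 are shown beside those of their counterparts because the members of these gene pairs separate in the comparisons that follow. The Psmb10 window held none of the motifs searched and is not printed. Each window runs from 250 bases before to 50 bases after the RefSeq start (GRCm38.p6, 300 bases, 5′ to 3′ of the gene's strand). They lie at chr17:34187281-34187580 (minus strand) for Psmb9, chr17:34197945-34198244 (plus strand) for Psmb8, chr11:70525107-70525406 (plus strand) for Psmb6 and chr14:54617946-54618245 (minus strand) for Psmb5. Capitals mark matches, on either strand, to GAAANNGAA (spacing of interferon response factor sites), TTCNNNGAA (STAT palindrome), TGACNNNGC (core of the antioxidant response element) or CCAAT.
Psmb9: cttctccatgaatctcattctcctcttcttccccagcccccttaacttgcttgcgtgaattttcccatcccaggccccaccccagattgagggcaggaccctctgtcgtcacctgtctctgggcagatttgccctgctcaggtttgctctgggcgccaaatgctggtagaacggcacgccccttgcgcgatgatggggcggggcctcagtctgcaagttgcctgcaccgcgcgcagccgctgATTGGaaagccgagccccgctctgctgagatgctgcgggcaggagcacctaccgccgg
Psmb8: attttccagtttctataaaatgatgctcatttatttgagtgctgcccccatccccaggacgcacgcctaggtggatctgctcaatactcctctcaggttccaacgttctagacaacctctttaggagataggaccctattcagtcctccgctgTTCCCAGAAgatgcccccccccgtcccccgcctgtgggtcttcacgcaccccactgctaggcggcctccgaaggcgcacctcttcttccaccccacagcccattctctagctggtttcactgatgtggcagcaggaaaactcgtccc
Psmb6: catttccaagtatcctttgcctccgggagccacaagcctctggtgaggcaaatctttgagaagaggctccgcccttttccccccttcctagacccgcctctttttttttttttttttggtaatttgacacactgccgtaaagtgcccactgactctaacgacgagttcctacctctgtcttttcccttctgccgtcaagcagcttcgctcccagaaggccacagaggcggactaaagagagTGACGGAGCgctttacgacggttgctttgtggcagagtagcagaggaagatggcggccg
Psmb5: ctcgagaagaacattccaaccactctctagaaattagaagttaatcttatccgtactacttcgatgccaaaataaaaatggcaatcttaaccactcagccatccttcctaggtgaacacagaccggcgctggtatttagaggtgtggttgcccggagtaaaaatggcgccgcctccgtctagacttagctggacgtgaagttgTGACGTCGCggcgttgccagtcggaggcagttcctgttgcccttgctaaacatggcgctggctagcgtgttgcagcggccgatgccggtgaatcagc

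Psmb9 and Tap1, a pump that carries peptides into the endoplasmic reticulum, start 226 bases apart on opposite strands, and their windows overlap over 275 of 300 bases. The Psmb9 window held 1 CCAAT box, the Psmb8 window 1 STAT palindrome, and the Psmb5 and Psmb6 windows 1 antioxidant response core each. Windows were found for 29 standard members and all 3 immunosubunits. The RefSeq starts of Psmb8, Psmb9 and Psmb10 lie 474, 434 and 52 bases downstream of the GENCODE gene starts, and the Psmb8 and Psmb9 windows lie wholly inside the genes as GENCODE lists them. In all, 8 of the members' 34 windows lie inside their genes in this way. The antioxidant response core was present in 5 of the 29 and 0 of the 3, against 14.0% of 27025 genes, and the interferon response factor spacing in 5 of the 29 and 0 of the 3, against 9.76%. The STAT palindrome was present in 1 of the 29 and 1 of the 3 (9.55% of all genes) and CCAAT in 12 of the 29 and 1 of the 3 (41.1%). These letters in these windows are a description and do not show whether a factor binds there.

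In stromal cells, the immunosubunits were lower in the Tom+ than in the Tom- library, Psmb9 and Psmb8 most, and most standard subunits differed less. Ratios are given on the log2 scale relative to the median gene of the comparison, and a gene counts as called at 0.35 or more from it, a size the study used for its own gene calls. The summed immunosubunits were at 146 CPM (143 to 149) in stromal cells of the Tom+ library and at 184 CPM (181 to 188) in those of the Tom- library, a relative log2 ratio of -0.41 (-0.45 to -0.36). Psmb9, at 23.1 against 34.2 CPM, had -0.64 (-0.74 to -0.53), Psmb8, at 66.4 against 85.7 CPM, had -0.44 (-0.50 to -0.38), and Psmb10, at 56.5 against 64.1 CPM, had -0.25 (-0.33 to -0.18). Psmb8 and Psmb9 passed the limit, 2 of the 3, where 11.1% of the 9778 genes were lower by that much and 9.78% were higher. Psmb10 lay within the range of the standard members, the lowest of which, Psmb2, was at -0.38. The replaced counterparts lay nearer to the median gene, with -0.20 for Psmb5, -0.085 for Psmb6 and 0.01 for Psmb7. Without shared barcodes the ratio of the sum was -0.51, and without cells of other types it was -0.48. Shared barcodes and immunoglobulin-rich cells were both more frequent in the Tom+ library, and the difference was larger under each of these alternatives. The second of them also leaves out cells with at least 3 UMIs of the immune and endothelial markers. No alternative left out shared barcodes and immunoglobulin-rich cells together. The interferon response list (Isg15, Ifit1, Ifit3 and 7 others) summed to 119 CPM in the Tom+ and 152 CPM in the Tom- stromal cells, and the dissociation and immediate early list (Fos, Jun and 8 others) to 22446 and 26483 CPM. An interstitial progenitor list (Pi16, Dpp4 and others) summed to 788 and 944 CPM, and a preadipocyte list (Fabp4, Cd36 and others) to 2254 and 2089 CPM. The part of these lists in the difference was not tested.

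Across the 34 standard members the median relative log2 ratio of Tom+ over Tom- stromal cells was -0.14, with 29 members below and 5 above the median gene. In plain CPM the split was 23 below and 11 above 0, since the median gene itself stood at 0.07. None of them was called higher and 1, Psmb2, was called lower at -0.38 (-0.42 to -0.34), against the 11.1% of all genes. With a limit of 20 CPM in place of 5 CPM Psmb2 was at -0.34 and no standard member was called. Psmb2, a non-catalytic beta subunit, had 146 CPM in the Tom+ and 180 CPM in the Tom- library. It was followed by the alpha subunits Psma2 and Psma3, each at -0.29. The 3 highest were the chaperone Psmd5 at 0.26 (0.11 to 0.40), Psmd8 at 0.13 and the chaperone Psmd10 at 0.07. By role, 7 of 7 alpha subunits, 6 of 6 ATPases, 6 of 7 beta subunits and 9 of 11 non-ATPase subunits lay below the median gene, the ATPases lowest as a group with a median of -0.21. The median of the standard members was -0.17 without shared barcodes and -0.15 without cells of other types. The median gene itself then stood at 0.13 and 0.14 in plain CPM. These relative medians therefore lie further below 0 than the ratios in plain CPM. The split in plain CPM is given only with all stromal cells.

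In mesothelial cells the members differed less between the libraries. The summed immunosubunits reached 357 CPM (341 to 373) in Tom+ cells and, in Tom- cells, 335 CPM (329 to 341), a relative log2 ratio of 0.06 whose interval of -0.01 to 0.13 includes 0. None of the 3 was called, with -0.05 for Psmb8, 0.02 for Psmb9 and 0.23 (0.11 to 0.35) for Psmb10. Of the standard members, 0 were called higher and 0 lower, where 5.93% of 10013 genes were higher and 5.53% lower. The standard median was -0.08, with 27 of 34 below the median gene, or 22 of 34 below 0 in plain CPM. Psmb2 was again the lowest at -0.32 (-0.41 to -0.22), ahead of Psmd13 and Psmc6, both at -0.21, and Psmd5 again the highest at 0.26, here with an interval from -0.07 to 0.57, ahead of Psmd10 at 0.11 and Psma7 at 0.08. The sum of the immunosubunits was at 0.07 without shared barcodes, which leaves 150 of the 250 Tom+ cells, and at 0.11 without cells of other types. Without shared barcodes 9.44% of all genes were higher and 10.3% lower in mesothelial cells, close to the 10.2% and 11.3% in stromal cells.

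**Figure D2:**
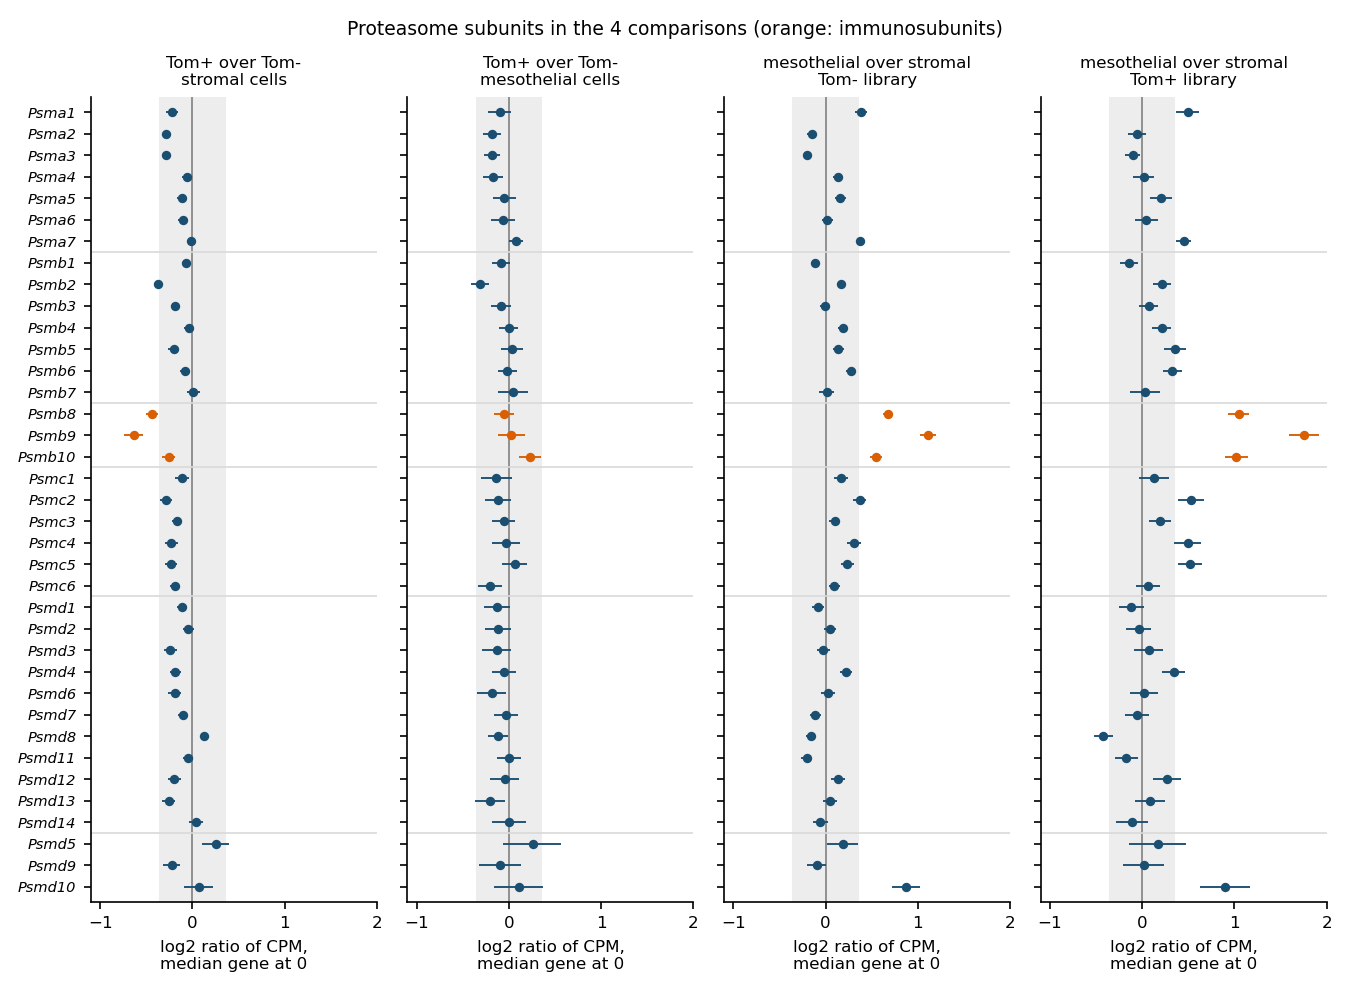
Log2 ratio of CPM for 37 members in the 4 comparisons, relative to the median gene at 0; bars are exact 95% counting intervals, the grey band holds ratios within 0.35, and immunosubunits are orange. The orange points are below 0 in the stromal comparison of the libraries (-0.64 to -0.25) and at 0.55 or more in both comparisons of mesothelial with stromal cells.

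The larger contrast was between cell classes of 1 library. In the Tom- library, where both classes hold many cells, the summed immunosubunits were at 335 CPM in mesothelial and 184 CPM in stromal cells, a relative log2 ratio of 0.73 (0.69 to 0.76). Psmb9 stood at 1.11, Psmb8 at 0.68 and Psmb10 at 0.55, so 3 of 3 were called higher, where 25.1% of 10019 genes were higher and 25.4% lower. In the Tom+ library the sum was at 357 against 146 CPM, a ratio of 1.18 (1.10 to 1.25), with Psmb9 at 1.76, Psmb8 at 1.05 and Psmb10 at 1.02. Again 3 of 3 were called higher, where 27.7% of 10231 genes were higher and 28.7% lower. Without shared barcodes the sums were at 0.82 and 1.38, and without cells of other types at 0.83 and 1.41, in the Tom- and the Tom+ library. The interferon response list of 10 genes moved with the class, at a summed level of 579 CPM in Tom- and 578 CPM in Tom+ mesothelial cells against 152 and 119 CPM in stromal cells. The part of interferon exposure in the class contrast was not tested.

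Standard members lay near the median gene in the class contrast. Their median was 0.10 in the Tom- library, with 23 of 34 above the median gene, and 0.08 in the Tom+ library, with 25 of 34 above it; in plain CPM 30 of 34 were above 0 in each. In the Tom- library 4 were called higher and 0 lower, and in the Tom+ library 7 were called higher and 1 lower, shares below those of all genes. All 6 ATPases were above the median gene in both libraries, with medians of 0.20 and 0.34, whereas the 11 non-ATPase subunits had medians of -0.03 and -0.04. Psmd10, the chaperone also known as gankyrin, had the highest ratio of the standard members in both, 0.87 (0.72 to 1.02) and 0.90 (0.62 to 1.16), from 11.7 CPM in stromal to 23.5 CPM in mesothelial cells of the Tom- library and from 12.9 to 25.9 CPM in the Tom+ library. Next came the alpha subunit Psma1 (0.38) and the ATPase Psmc2 (0.37) in the Tom- library, and Psmc2 (0.53) and the ATPase Psmc5 (0.52) in the Tom+ library. The lowest were the cap subunit Psmd11 (-0.20), Psma3 (-0.20) and Psmd8 (-0.16) in the Tom- library, and Psmd8 (-0.42), Psmd11 (-0.17) and Psmb1 (-0.14) in the Tom+ library. The 2 comparisons use different cells, and Psmd8 had 164 and 155 CPM in the mesothelial cells of the Tom- and Tom+ libraries against 166 and 191 CPM in their stromal cells.

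A share of 2 genes in the same cells does not depend on the scaling, so each immunosubunit was also set against the counterpart whose place it takes. Psmb8 made up 42.1% (exact Clopper-Pearson 95% interval 41.1 to 43.2) of the UMIs of Psmb8 and Psmb5 in Tom+ stromal cells, 46.2% (45.2 to 47.1) in Tom- stromal cells, 54.0% (51.4 to 56.6) in Tom+ mesothelial cells and 55.5% (54.4 to 56.5) in Tom- mesothelial cells. For Psmb9 against Psmb6 the shares were 16.3% (15.5 to 17.2), 22.3% (21.4 to 23.1), 34.5% (31.9 to 37.1) and 33.8% (32.8 to 34.9). For Psmb10 against Psmb7 they were 47.8% (46.6 to 49.1), 52.4% (51.2 to 53.6), 64.5% (61.5 to 67.5) and 61.5% (60.2 to 62.8). The order Tom+ stromal below Tom- stromal below mesothelial held for all 3 pairs, and between the mesothelial groups the intervals overlapped for all 3. Over the 3 pairs together the share was 35.0% (34.4 to 35.6), 39.9% (39.3 to 40.4), 50.1% (48.5 to 51.7) and 49.3% (48.6 to 50.0). Without shared barcodes the Tom+ stromal share was 33.5% and the Tom+ mesothelial share 52.1%, and without cells of other types the stromal shares were 32.7% (Tom+) and 38.6% (Tom-). RNA shares do not give the composition of assembled particles.

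**Figure D3:**
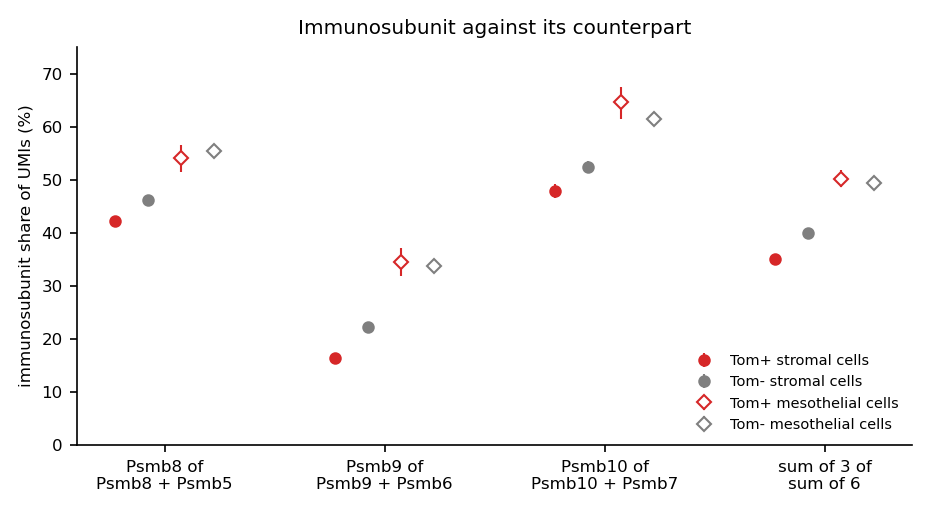
Immunosubunit UMIs as a percentage of the UMIs of the immunosubunit and its counterpart, by group; bars are exact Clopper-Pearson 95% intervals. Each pair orders Tom+ stromal below Tom- stromal below the mesothelial groups, for the 3 pairs together 35.0%, 39.9%, 50.1% and 49.3%.

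Among the stromal cells of 1 library, immunosubunit RNA followed the interferon list. In the 10% of stromal cells with the highest share of interferon list UMIs, the summed immunosubunits were at 208 CPM against 140 CPM in the other cells of the Tom+ library (326 cells), a relative log2 ratio of 0.48 (0.38 to 0.57), and at 306 against 171 CPM in the Tom- library (480 cells), a ratio of 0.83 (0.75 to 0.90). All 3 were higher, with Psmb8 at 0.43 and 0.85, Psmb9 at 0.49 and 0.89 and Psmb10 at 0.53 and 0.76. The standard median in these cells was 0.00 and 0.02. Without cells of other types the immunosubunit sum was at 0.64 (0.53 to 0.74) in the Tom+ and 0.87 (0.79 to 0.94) in the Tom- library. Between libraries, the share of immunosubunit UMIs was lower in Tom+ cells both in the cells highest for the list, at 42.8% against 52.2%, and in the others, at 34.1% against 38.2%. The highest cells were picked within each library, so the libraries were not matched on the level of the list. The list, the immunosubunits and the cell depth were measured in the same libraries, and these ratios are descriptions of cells, not of replicates.

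Other states went with smaller differences. In the 10% of stromal cells highest for the preadipocyte genes Fabp4, Cd36, Lpl, Pparg and Plin2, the immunosubunit sum was at -0.21 (-0.32 to -0.10) in the Tom+ and -0.36 (-0.46 to -0.26) in the Tom- library. Without cells of other types it was at -0.12 in the Tom+ library, with an interval of -0.24 to 0.001 that includes 0, and at -0.34 in the Tom- library. For the interstitial progenitor genes Pi16, Dpp4, Sema3c, Anxa3 and Cd55 it was at -0.05 and 0.16, and at 0.13 and 0.28 without cells of other types. For dissociation and immediate early genes such as Fos and Jun it was at -0.36 and -0.37, and at -0.17 and -0.29 without cells of other types. The deeper cells of each library carried more, at 0.36 and 0.20, and at 0.17 and 0.11 without cells of other types. Their standard median was raised too, at 0.18 (34 of 34 members above the median gene) and 0.09 (32 of 34). Without cells of other types it was at 0.15 and 0.08. The share of immunosubunit UMIs was 35.6% against 33.6% in the Tom+ and 40.4% against 38.8% in the Tom- library. Without cells of other types it was 32.6% against 33.0% and 38.8% against 38.3%.

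The largest ratios were in the immunoglobulin-rich cells, which were picked by their immunoglobulin UMIs. Their cell type was not tested, and doublets were not called. There the immunosubunit sum was at 195 against 140 CPM in the other stromal cells of the Tom+ library and at 317 against 179 CPM in the Tom- library. Immunoglobulin RNA takes much of these cells' UMIs, so the median gene itself stood at -1.26 and -0.88, and relative to it the sum was at 1.74 (1.65 to 1.84) and 1.71 (1.59 to 1.82). Psmb8 was at 2.21 and 1.99, Psmb9 at 2.07 and 2.23 and Psmb10 at 0.78 and 0.72. The scaling does not enter the share of immunosubunit UMIs, which was 53.2% against 33.1% in the Tom+ and 54.7% against 39.2% in the Tom- library. The standard median relative to the median gene was 0.44 and 0.39, with 33 of 34 members above it in each library, while in plain CPM the standard sum was lower than in the other cells, at 1928 against 3487 CPM and 2595 against 3512 CPM. These cells were deep, at a median of 39262 and 28972 UMIs. In the Tom+ library, stromal cells with a tdTomato UMI (934 cells) had an immunosubunit sum of 159 CPM against 139 CPM in those without, or 0.48 (0.41 to 0.55) relative to the median gene, which stood at -0.29. Without cells of other types the same ratio was 0.00 (-0.08 to 0.08) over 755 cells with a tdTomato UMI. In the Tom- library 629 of the 4800 stromal cells had a tdTomato UMI, with a ratio of 0.08 (-0.001 to 0.15). Without cells of other types that ratio was -0.02 (-0.11 to 0.06) over 601 cells with a tdTomato UMI.

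**Figure D4:**
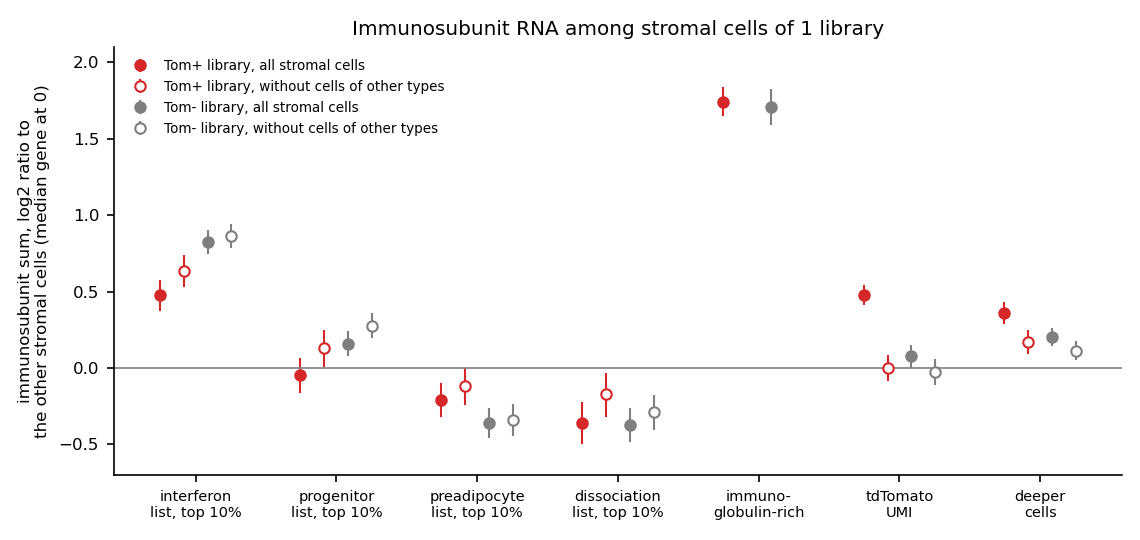
Relative log2 ratio of the summed immunosubunits between stromal cells of a state and the other stromal cells of the same library, with exact 95% counting intervals; open points leave out cells of other types. The interferon list points are at 0.48 (Tom+) and 0.83 (Tom-), and at 0.64 and 0.87 without cells of other types. The tdTomato point of the Tom+ library moves from 0.48 to 0.00 without cells of other types.

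Per cell, the counts were spread over many cells. With each cell thinned to 7500 UMIs, which left out 265, 636, 3 and 98 cells of the Tom+ stromal, Tom- stromal, Tom+ mesothelial and Tom- mesothelial groups, the standard members had a median of 25, 26, 28 and 30 UMIs per cell, and no cell had none. The mean of the 3 immunosubunits was 1.04, 1.31, 2.65 and 2.59 UMIs per cell, and 40.2%, 33.0%, 15.4% and 13.7% of cells had none of them. Without thinning these shares were 22.6%, 23.5%, 4.00% and 4.72%, at the median depths given above, so no order between the stromal groups is read from the unthinned cells. Proteasome genes are used by every cell type, so the part of free RNA in these shares could not be set against a background. A cell without such a UMI is not a cell without the protein.

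**Figure D5:**
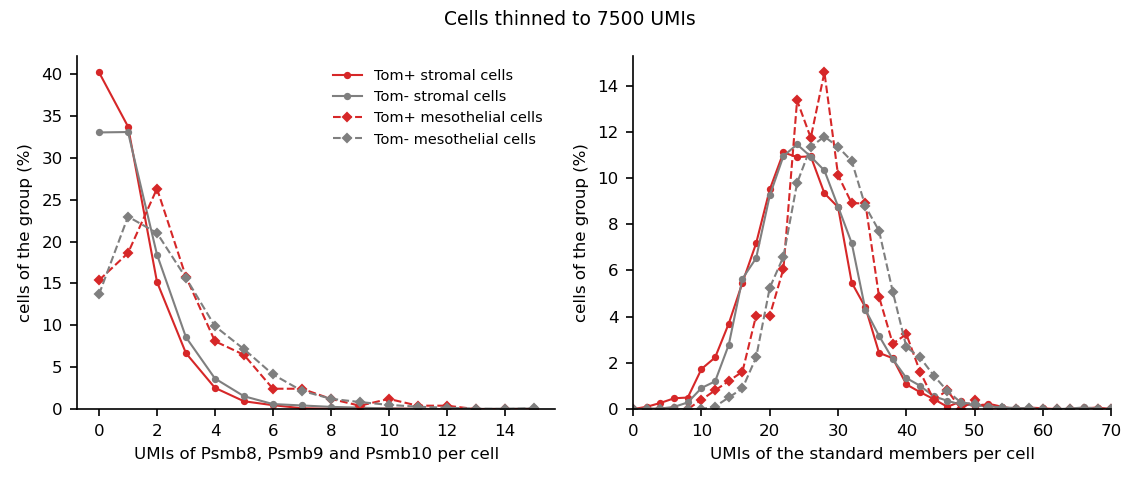
Percentage of cells by UMIs of Psmb8, Psmb9 and Psmb10 (left) and of the standard members (right, in bins of 2 UMIs) after thinning each cell to 7500 UMIs. Cells without an immunosubunit UMI are 40.2% and 33.0% of the stromal and 15.4% and 13.7% of the mesothelial groups (Tom+ and Tom-).

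The other genes of the pathway were taken from 4 lists. Of the regulators and assembly factors, a list that also holds the cap subunits Sem1 and Adrm1, 17 of 18 were analysed here, all above the limit. Psme1 and Psme2, the subunits of the PA28 activator that opens the gate, went with the immunosubunits by class, at 1.13 and 0.83 for mesothelial over stromal cells in the Tom- library and 1.42 and 0.99 in the Tom+ library. Psme1 was at 311 and 318 CPM in Tom- and Tom+ mesothelial cells against 129 and 110 CPM in stromal cells. In that contrast 4 of the 17 were called higher in each library, no larger a share than the 25.1% and 27.7% of all genes. Psmg4, an assembly chaperone of the core, was among them at 0.95 and 0.92, and 1 and 3 were called lower (25.4% and 28.7% of all genes), led by Psme4, the PA200 activator of the nucleus, at -0.44 and -0.87. For Tom+ over Tom- stromal cells 3 were called higher (9.78% of all genes), Psme4 (0.46), AI314180, the scaffold Ecpas (0.41), and the chaperone Psmg3 (0.37), and 0 lower, the lowest being Psmg2 (-0.35). In mesothelial cells 0 of 17 were called in either direction between libraries.

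Of the 15 antigen presentation genes 14 were above the limit, Nlrc5 staying under 5 CPM. For Tom+ over Tom- stromal cells 6 of the 14 were called lower, where 11.1% of all genes were, and 0 higher, where 9.78% were. They were Tap2 (-0.64) and Tap1 (-0.59), the peptide pump, the class I heavy chains H2-D1 (-0.57), H2-T23 (-0.48) and H2-K1 (-0.46), and Pdia3 (-0.38), a disulfide isomerase of the loading complex, while the chaperone Canx was highest at 0.31. In mesothelial cells 0 of 14 were called between libraries. For mesothelial over stromal cells 10 of 14 were called higher in the Tom- and 12 of 14 in the Tom+ library, where 25.1% and 27.7% of all genes were, and 0 lower. H2-K1 led in the Tom- library at 1.22, and Canx was lowest in both libraries at -0.20 and -0.30.

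Of the 15 genes of ubiquitin supply and delivery, 3 were called lower in Tom+ than in Tom- stromal cells and 0 higher, where 11.1% and 9.78% of all genes were. Among those lower was Ubb, a gene for a ubiquitin precursor, at -0.51. Rps27a, which encodes ubiquitin joined to a ribosomal protein, stood at -0.16 in stromal and -0.06 in mesothelial cells. In mesothelial cells the list had 1 gene higher, Nploc4 (0.40), and 2 lower, among them Ubqln4 (-0.45), against 5.93% and 5.53% of all genes. Between classes it had 2 higher and 1 lower in the Tom- library, where 25.1% and 25.4% of all genes were, and 5 higher and 2 lower in the Tom+ library, where 27.7% and 28.7% were. The last list holds 4 genes of transcriptional control. Nfe2l1, the transcription factor known for raising proteasome genes when the proteasome is inhibited, was at 0.25 and 0.12 for Tom+ over Tom- in stromal and mesothelial cells, and its protease Ddi2 at 0.48 and 0.47. Nfe2l2, the antioxidant factor Nrf2, was at -0.55 in stromal and -0.08 in mesothelial cells, and Ngly1 at -0.18 and 0.02. For mesothelial over stromal cells 2 of the 4, Nfe2l1 and Ddi2, were called lower in each library, where 25.4% and 28.7% of all genes were, and 0 higher.

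Other multi-subunit complexes were set beside the standard members in the same comparisons. For Tom+ over Tom- stromal cells the median was -0.14 for the 34 standard members, -0.11 for 12 eIF3 subunits, -0.20 for 7 subunits of the COP9 signalosome, -0.21 for 7 of the CCT chaperonin, -0.10 for 76 cytosolic ribosomal proteins and -0.07 for 36 NADH dehydrogenase subunits. All of these medians were below 0. In mesothelial cells they were -0.08, -0.02, -0.13, -0.11, -0.01 and -0.08 in the same order. For mesothelial over stromal cells in the Tom- library the medians were 0.10, 0.28, 0.11, 0.18, -0.03 and 0.28 in the same order, and in the Tom+ library 0.08, 0.38, 0.10, 0.28, 0.06 and 0.25. The standard members thus lay among these complexes and no difference between complexes was tested.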

How the data were processed

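Single-cell RNA was measured in 1 Tom+ and 1 Tom- library (10x Genomics 3′ kit, v3.1). The deposited matrices hold UMI counts, whole numbers without normalization, which the authors made with Cell Ranger 3.0.2 on mm10 per the labels. They held 61119807 (Tom+) and 96872394 (Tom-) UMIs. The limits on genes and mitochondrial share follow the study's methods. Doublets were not called here.

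UMIs were summed per library and cell class and scaled to CPM. Genes were compared, with no p-value, where their mean over the 2 groups reached 5 CPM, and the log2 ratio of the median gene (0.07, 0.03, 0.14 and 0.11 in the 4 comparisons, or -0.01, -0.05, -0.02 and -0.04 with median-of-ratios size factors) was subtracted. Intervals at 95% are exact Poisson, or Clopper-Pearson for ratios and shares, and cover counting error only. Gene coordinates are of GENCODE vM21 (GRCm38), and promoter windows of RefSeq (GRCm38.p6), found for 32 of 39 members. Psmb8 (ENSMUSG00000024338) lies at chr17:34197721-34201454, Psmb9 (ENSMUSG00000096727) at chr17:34181987-34187764 and Psmb10 (ENSMUSG00000031897) at chr8:105935735-105938444. The ratio code was tested on simulated data. Named are all immunosubunits and their counterparts, and the 3 highest and 3 lowest standard members of each comparison and group. States are the 10% of stromal cells with the largest share of a list's UMIs. The alternatives were other limits on low values and mitochondrial share, size factors, equal weight per cell, stricter marker limits, thinned cells, and leaving out cells of other types or shared barcodes. The members and lists were chosen with earlier results of these data known. Python 3 with numpy, pandas, scipy and matplotlib was used. The values of some genes of the pathway lists are not reported here.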

Additional observations from a re-analysis of the deposited data

Results flagged for a closer look

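Psmb10 lay on opposite sides of the median gene in the 2 cell classes, at -0.25 (-0.33 to -0.18) for Tom+ over Tom- stromal cells and at 0.23 (0.11 to 0.35) in mesothelial cells. Psmd8 did so in the other order, at 0.13 (0.09 to 0.17) in stromal and -0.11 (-0.22 to -0.01) in mesothelial cells. With 1 library per sorted group the difference between the classes was not tested in either case. Without shared barcodes the mesothelial value of Psmb10 was 0.13.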

How the results depend on the processing

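No paired analysis was possible because each group has 1 library. Over the 8 comparisons of the standard median and the immunosubunit sum, no alternative turned a direction past the limit. The standard medians stayed within the median bounds of the members' counting intervals. Of 1325 values of single members under the alternatives, 1279 stayed within their counting interval, 46 moved outside it and none of those past the limit of 0.35 changed sign. Of the values under the limit 60 changed sign, each within 0.104 of the median gene as reported. The immunosubunit sum for Tom+ over Tom- stromal cells moved to -0.48 without cells of other types and to -0.51 without shared barcodes. For mesothelial over stromal cells in the Tom- library it moved to 0.856 with equal weight per cell, 0.834 without cells of other types, 0.856 with thinned cells and 0.82 without shared barcodes, and in the Tom+ library to 1.29, 1.41, 1.28 and 1.38. The share of immunosubunit UMIs moved in Tom+ stromal cells to 34.2%, 32.7%, 33.6% and 33.5% under the same alternatives, in Tom- stromal cells to 39.1%, 38.6% and 38.9% under the first 3, in Tom- mesothelial cells to 50.3% with equal weight per cell and 50.2% without shared barcodes, and in Tom+ mesothelial cells to 52.1% without shared barcodes. The causes were not tested. The alternative without shared barcodes, and all alternatives for shares and states, were chosen after seeing the data. Standard members called between libraries in mesothelial cells numbered 2 higher and 1 lower with thinned cells, 0 and 1 with size factors and 1 and 0 without a limit on low values, against 0 and 0; in stromal cells they numbered 0 higher and 0 lower at 20 CPM and 2 and 1 without a limit on low values, against 0 and 1. The shares of all genes called moved too, in mesothelial cells to 11.5% higher and 10.3% lower with thinned cells, 4.37% and 7.69% with size factors and 18.2% and 13.2% without a limit, and in stromal cells to 8.58% and 10.0% at 20 CPM and 19.1% and 21.2% without a limit. With thinned cells 2 were called lower for mesothelial over stromal cells in the Tom+ library against 1 (30.0% of all genes), and without a limit 1 was called lower in the Tom- library against 0 (30.6%). In this contrast those called higher in the Tom+ library ranged from 5 of 32 at 20 CPM (26.5% of all genes) to 9 of 34 with thinned cells (29.4%), against 7. In the Tom- library they ranged from 3 of 32 at 20 CPM (24.0%) to 5 of 36 without a limit (31.7%), against 4. In the Tom+ library 21 of 34 were above 0 with size factors, a scale on which the median gene stood at -0.04. Relative to the median gene 25 of 34 were above it. The 250 Tom+ mesothelial cells, with 5322983 UMIs, limit every value that uses them.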

Other observations

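In the mesothelial cells of the Tom- library, the 216 cells with a tdTomato UMI had a summed immunosubunit level of 292 CPM against 342 CPM in the others, a relative log2 ratio of -0.23 (-0.32 to -0.15). They were also deeper, at a median of 20297 UMIs, and the deeper cells of this group had 318 against 371 CPM, a ratio of -0.24. In the mesothelial cells of the Tom+ library the 198 cells with a tdTomato UMI were at 366 CPM against 328 CPM in the 52 others. The ratio was 0.16 (0.003 to 0.32). Without cells of other types it was 0.06, with an interval of -0.10 to 0.23 that includes 0, and 43 cells had no tdTomato UMI. The Tom- ratio was then -0.21 (-0.29 to -0.12). Among all Tom+ mesothelial cells, those with a tdTomato UMI were the shallower ones, at a median of 17550 against 24467 UMIs. In the Tom- library they were the deeper ones. The deeper Tom+ mesothelial cells had a ratio of -0.06 (-0.20 to 0.08). Without cells of other types the ratio of the deeper cells was 0.16 (0.007 to 0.31) in the Tom+ and -0.22 in the Tom- library. The parts of depth and tdTomato UMIs were not tested.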
